A study of Rattus norvegicus with 8 samples.

Results

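The genes of Wnt signaling at the cell surface were followed in osteoblast-like cells from rat calvariae, the bones of the skull roof, with and without irradiation by an Er:YAG laser. Members were taken by gene name on the array, and comprised 19 Wnt ligands, 10 Frizzled receptors, the co-receptors *Lrp5* and *Lrp6*, 11 secreted inhibitors (*Dkk1* to *Dkk4*, *Frzb*, *Sfrp1*, *Sfrp2*, *Sfrp4*, *Sfrp5*, *Sost* and *Wif1*), and the feedback target *Axin2* with the nuclear factors *Lef1* and *Tcf7*. These 45 genes were among 34912 gene names, and 67 of 45598 rat probes measured them. Primary cells had been isolated by enzymatic digestion of calvariae, without periosteum, from Wistar rats aged 3 to 5 days, and grown to confluency. The non-irradiated group (n = 4) and the irradiated group (n = 4, 3.3 J/cm2 over 60 s, given with the medium removed) were both collected at 6 h in osteoinduction medium, which holds ascorbic acid, β-glycerophosphate and dexamethasone. Each group carried replicate numbers 1 to 4, and the scanner file names gave both cultures of a number the same rat number. A non-irradiated and an irradiated culture of 1 number are therefore called a pair. Whether cells of littermates were pooled is not given in the sources used here, and the cells are a mixed primary preparation rather than a pure osteoblast line.

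Wnt ligands are secreted glycoproteins that bind Frizzled receptors and, together with Lrp5 or Lrp6, prevent the breakdown of β-catenin, which then acts on genes with Tcf and Lef factors. Sfrp proteins, Frzb and Wif1 bind the ligands outside the cell, whereas Dkk1 and Sost (sclerostin) block the co-receptors. In bone, this pathway is known for its role in osteoblast formation, and loss of Lrp5 or of sclerostin lowers or raises bone mass.

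Each probe of the array is a single strand of 60 bases, and what a probe reports depends on the stretch of transcript it matches. The 5 probes below are shown because the results turn on them: those of *Sfrp1* and *Wnt2* lay in genes whose level differed between pairs, those of *Lef1* and *Tcf7* gave another sign than a brighter probe of the same gene, and that of *Axin2* is the readout of β-catenin activity among the members. Positions come from the array design, on the rat build rn4, and each of these probes had at least 1 reading frame without a stop codon.
Sfrp1, chr16:73031711-73031770, minus strand: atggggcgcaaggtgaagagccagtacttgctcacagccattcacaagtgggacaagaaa
Wnt2, chr4:43682205-43682264, minus strand: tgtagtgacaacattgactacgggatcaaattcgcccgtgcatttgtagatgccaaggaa
Lef1, chr2:228668698-228668757, plus strand: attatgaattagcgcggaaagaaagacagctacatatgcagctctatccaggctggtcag
Tcf7, chr10:37691480-37691539, minus strand: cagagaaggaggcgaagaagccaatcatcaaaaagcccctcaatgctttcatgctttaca
Axin2, chr10:98321105-98321164, plus strand: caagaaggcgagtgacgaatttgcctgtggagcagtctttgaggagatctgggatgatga

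All values are log2 of the background-corrected signal after quantile normalization. All 8 arrays lay on 1 slide, with non-irradiated arrays in columns 1 and 3 and irradiated arrays in columns 2 and 4, so slide position and irradiation cannot be told apart. Each array had 26543 to 30490 probes well above background. Across 26250 probes, deviations from the group means correlated within replicate numbers at 0.608, 0.0542, 0.571 and 0.749. Irradiated replicate 2 stood apart from non-irradiated replicate 2 and correlated at 0.439 with non-irradiated replicate 1. All 9 osteoblast markers looked at, among them *Runx2*, *Alpl*, *Bglap* and *Col1a1*, were well above background on all 8 arrays. Of the 6 macrophage and leukocyte markers, *Cd68*, *Cd14* and *Itgam* were so on all 8 arrays. *Adgre1* was so on 6 arrays, *Csf1r* on 5 and *Ptprc* on 1. Cartilage, endothelial and muscle transcripts were also present, and values of some stand beside the members they moved with.

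Of the 45 genes, 30 had a probe well above background on all 8 arrays, and 32 were bright enough in at least 1 group to be tested. The classes other than the ligands were the most completely detected, since 8 of 10 Frizzled receptors, both co-receptors, 9 of 11 inhibitors and all of *Axin2*, *Lef1* and *Tcf7* were tested. The ligands were split, with 10 of 19 tested. *Wnt2b*, *Wnt3*, *Wnt3a*, *Wnt4*, *Wnt6*, *Wnt7b*, *Wnt8a*, *Wnt8b*, *Wnt16*, *Fzd5*, *Fzd9*, *Dkk2* and *Dkk4* were not tested, and *Wnt7b*, *Wnt16* and *Dkk2* were not well above background on any array.

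**Figure D1:**
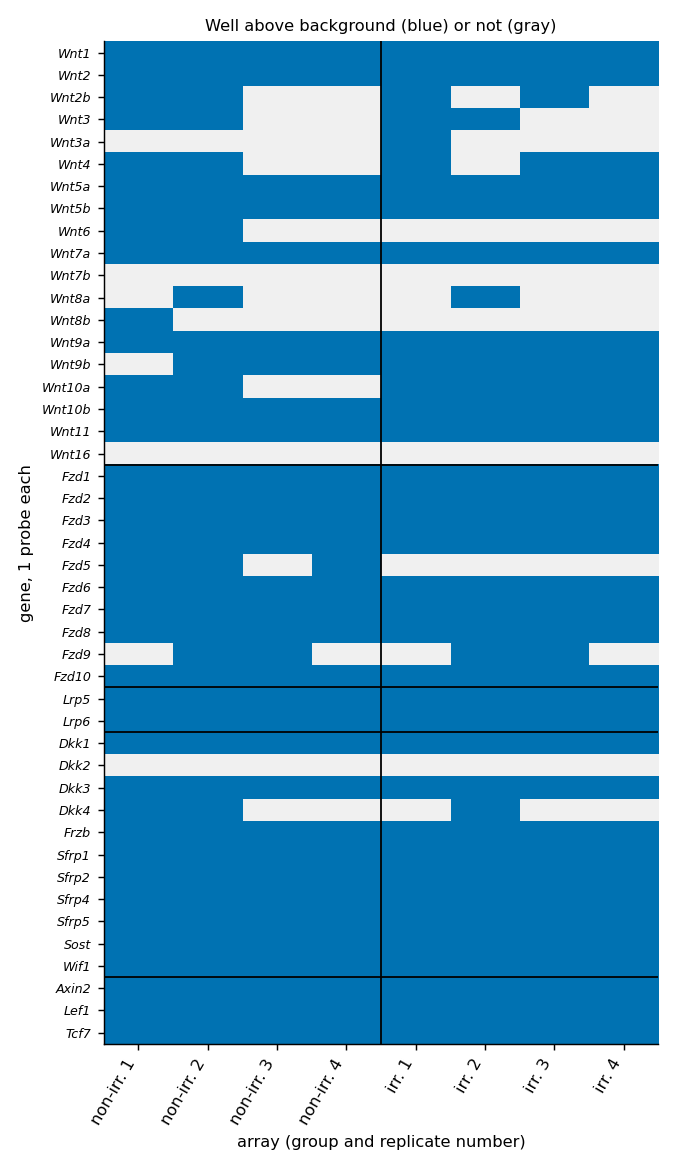
Detection of the 45 genes, 1 probe each in rows (the brightest probe, or the brightest tested one), on the 8 arrays in columns. Blue cells were well above background and gray cells were not; horizontal lines separate ligands, Frizzled receptors, co-receptors, inhibitors, and *Axin2*, *Lef1* and *Tcf7*. Gray cells are mostly in ligand rows.

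Irradiation left the members, as measured here, without a call after adjustment. None of the 44 tested probes had an adjusted p below 0.1 (limma with the pair as a block, Benjamini-Hochberg over all probes), and the share over all 26399 fitted probes was 0%. At an unadjusted p below 0.05, 1 member probe was higher and 0 were lower, against 1.42% of all probes higher and 1.12% lower. Of the 32 genes, taking the brightest tested probe of each, the fitted difference over pairs was above 0 for 22 and below 0 for 10, with a median log2 difference of 0.05, and over all probes the median was -0.0034 and 48.8% were higher. The 95% interval of the difference lay within 1 log2 unit of 0 for 32 of 32 genes and within 0.5 for 14.

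The lean toward higher values rested on pair 2. There the median difference of the members was 0.29 and 24 genes were higher, while it was -0.035 in pair 1, 0.026 in pair 3 and -0.011 in pair 4. Over all probes the medians were -0.064, 0.085, -0.013 and 0.0014. Without replicate 2 the members' median was -0.021, and without replicate 1 it was 0.096. In pairs 1 and 2 the difference had opposite signs for 22 of 31 members, as it had for 74.2% of all probes.

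**Figure D2:**
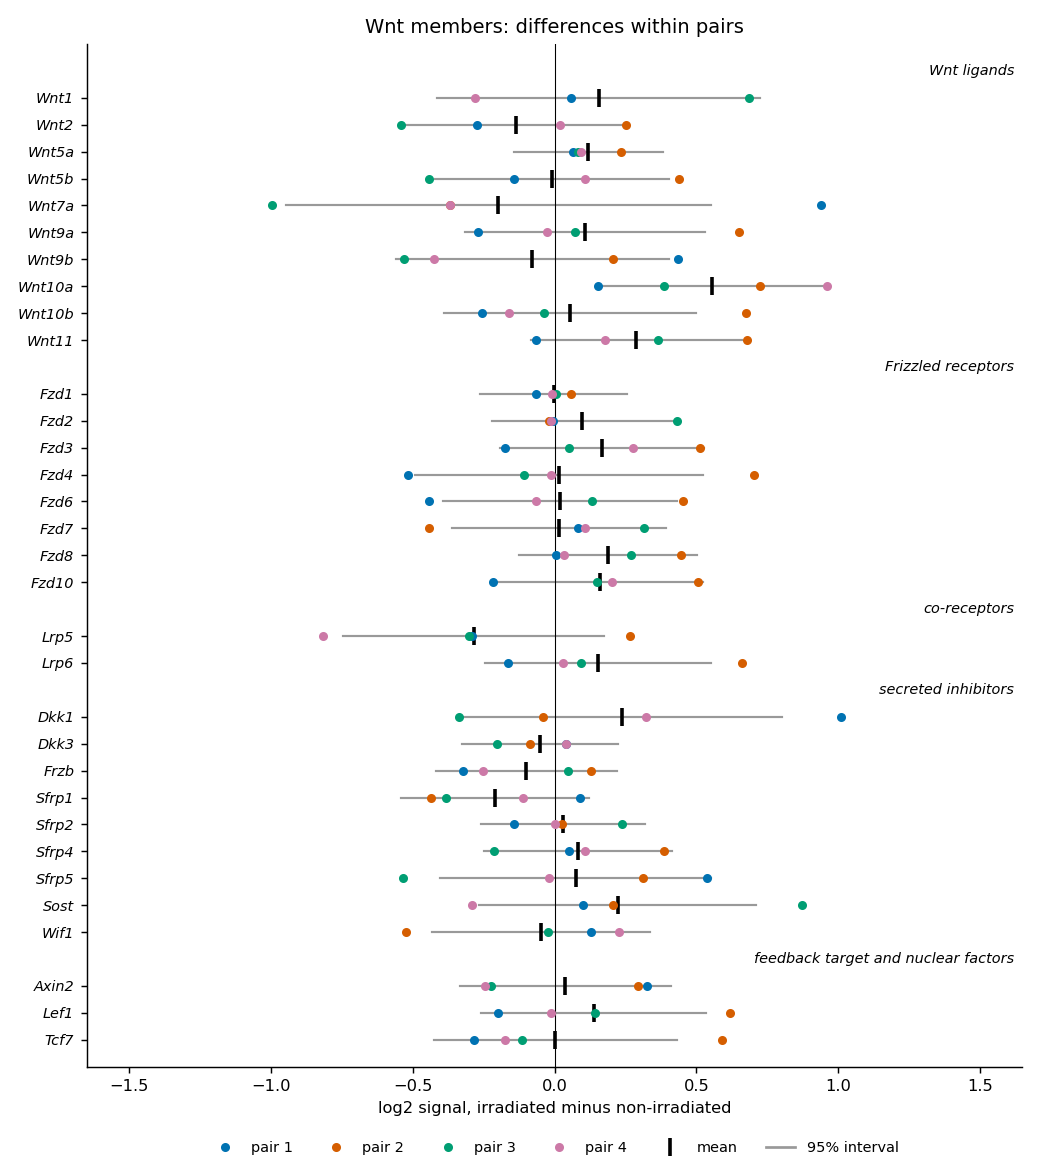
Log2 signal in irradiated minus non-irradiated cells for the 32 tested members (x axis), grouped by role. Points are the 4 pairs, black ticks the mean over pairs and gray lines its 95% interval from limma. Every interval lies between -1 and 1, and the points of pair 2 are to the right for most receptors and ligands.

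Of the 10 tested ligands, 6 had a fitted difference above 0 and 4 below 0, with a median difference of 0.08, which was 0.44 in pair 2 alone and -0.11 without replicate 2. *Wnt10a*, a ligand that activates β-catenin signaling and favors osteoblasts over fat cells, was the one member probe that passed at the unadjusted level. Its log2 signal was 3.96, 4.10, 3.82 and 3.44 in non-irradiated replicates 1 to 4, and 4.12, 4.83, 4.21 and 4.40 in the irradiated ones. The irradiated value was higher in 4 of 4 pairs and the groups did not overlap, although the brightest non-irradiated and the dimmest irradiated array nearly met. Groups that do not overlap were found for 0.579% of all probes. Group means were 3.83 ± 0.29 and 4.39 ± 0.32 (SD, n = 4), a difference of 0.56 (SE 0.16, 95% interval 0.16 to 0.96; adjusted p = 1.00, limma). An exact two-sided sign-flip test over 4 pairs alone cannot pass a p of 0.05, whatever the values. The probe, at chr9:74137306-74137365, was well above background on 2 of 4 non-irradiated and 4 of 4 irradiated arrays. It was therefore tested only because of the group in which it was higher, so its interval and the lack of overlap are given as a description, and with all 8 arrays required it was not tested. With normexp background correction the difference was 0.11 and with the uncorrected mean signal 0.15, and neither passed.

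*Wnt5a*, a ligand that mostly signals without β-catenin, was higher in 4 of 4 pairs by small steps. Its values were 9.71, 9.18, 9.08 and 8.94 in non-irradiated cells and 9.77, 9.41, 9.17 and 9.03 in irradiated cells, which overlap. The difference was 0.12 (SE 0.11, 95% interval -0.15 to 0.38), and a dimmer *Wnt5a* probe was higher in 3 of 4 pairs, by 0.08 in the mean. Among the 32 tested members, higher values in 4 of 4 pairs were found for 3, *Wnt5a*, *Wnt10a* and *Fzd8*, and lower values in 4 of 4 for 0, against 3.57% and 4% of all probes. Among the members too dim to test, both *Wnt8a* probes were higher and *Wnt6* and *Dkk4* lower in 4 of 4, at values mostly not well above background. The shares just given cover tested probes only, and none was counted for dim probes. *Wnt11*, which also mostly signals without β-catenin, measured 7.66, 5.63, 5.72 and 5.83 without and 7.59, 6.31, 6.09 and 6.01 with irradiation. It was higher in 3 of 4 pairs, by 0.29 in the mean (SE 0.15, 95% interval -0.09 to 0.66), and the groups overlapped through replicate 1. Without replicate 1 the difference was 0.41, which passed at the unadjusted level. The other 7 tested ligands had mean differences between -0.20 (*Wnt7a*) and 0.16 (*Wnt1*), and *Wnt1* was measured in 3 pairs because its spot on irradiated array 2 was marked as outlying, so its fitted difference is positive while its group means were 8.93 without and 8.81 with irradiation.

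**Figure D3:**
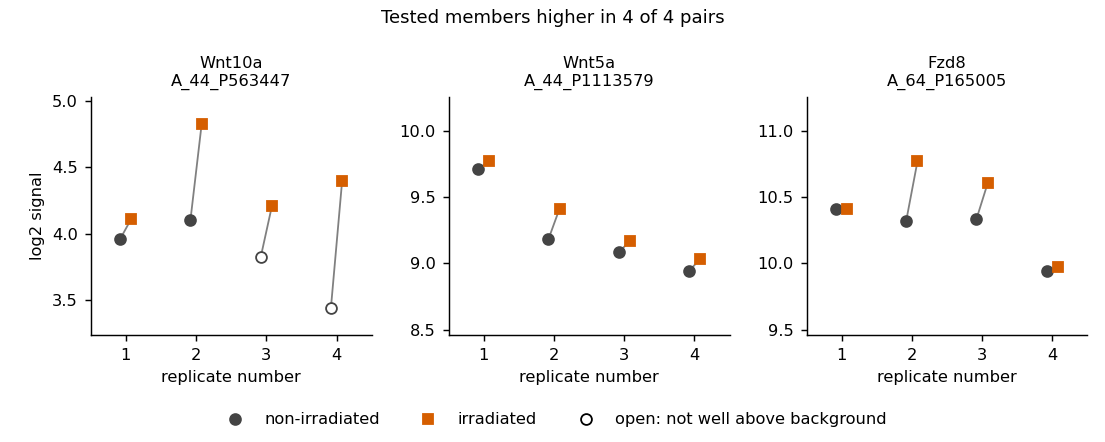
Log2 signal (y axis) by replicate number (x axis) for the 3 tested members that were higher in 4 of 4 pairs. Circles are non-irradiated and squares irradiated cultures, gray lines join a pair, and open symbols were not well above background. For *Wnt10a* the circles of replicates 3 and 4 are open.

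*Wnt9b* was dim, at 3.53, 4.12, 4.93 and 4.42 in non-irradiated cells and 3.97, 4.33, 4.40 and 3.998 in irradiated cells. It was well above background on 3 non-irradiated and 4 irradiated arrays, so it too was tested through the irradiated group, and its difference was -0.08 (SE 0.20, 95% interval -0.56 to 0.40). Among ligands too dim to test, *Wnt6* was singled out after its values were seen. It measured 3.85, 4.15, 3.47 and 3.26 without and 2.83, 2.32, 1.57 and 2.89 with irradiation, so the groups did not overlap. How often groups do not overlap among probes too dim to test was not counted. The probe was well above background on 2 non-irradiated arrays and on 0 irradiated ones, so the size of its difference cannot be given. *Fzd5*, a receptor detected on 3 non-irradiated and 0 irradiated arrays, was lower in 3 of 4 pairs and higher by 0.59 in pair 3.

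The mean differences of the Frizzled receptors ran from -0.003 for *Fzd1* to 0.19 for *Fzd8*, with 7 of 8 above 0 and a median of 0.06. Single pairs moved more, as for *Fzd4*, at -0.52 in pair 1 and 0.70 in pair 2. In pair 2 the median of the receptors was 0.45, and without replicate 2 it was 0.048. *Fzd8* measured 10.41, 10.32, 10.33 and 9.94 in non-irradiated cells and 10.41, 10.77, 10.60 and 9.98 in irradiated cells. Pairs 2 and 3 carried its difference of 0.19 (SE 0.13, 95% interval -0.13 to 0.50), pairs 1 and 4 lay within 0.032, and the groups overlapped. The other *Fzd8* probes gave 0.08 and 0.14. *Fzd1* was the most even between groups, at 15.01, 13.99, 13.85 and 14.10 without and 14.94, 14.05, 13.85 and 14.09 with irradiation.

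Both co-receptors were lower in pair 1 and higher in pair 2, and the intervals of both differences included 0. *Lrp5* measured 9.52, 9.16, 9.14 and 8.86 in non-irradiated cells and 9.23, 9.42, 8.84 and 8.04 in irradiated cells. It was lower in 3 of 4 pairs and higher in pair 2, with a difference of -0.29 (SE 0.19, 95% interval -0.75 to 0.17). Without replicate 2 the difference was -0.47, which passed at the unadjusted level only. *Lrp6* measured 9.29, 8.89, 8.78 and 8.92 without and 9.13, 9.55, 8.87 and 8.95 with irradiation, a difference of 0.15 (SE 0.16, 95% interval -0.25 to 0.55), which was -0.016 without replicate 2. A second *Lrp6* probe of the same sequence gave 0.07, and the duplicates differed by a median of 0.062 and at most 0.18 on an array, which is the scale of spot-to-spot error at this brightness.

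The secreted inhibitors had mean differences from -0.21 (*Sfrp1*) to 0.24 (*Dkk1*), with 5 of 9 higher and a median of 0.03. *Sost*, the osteocyte product sclerostin, was higher in 3 of 4 pairs, by 0.22 (SE 0.20, 95% interval -0.27 to 0.71). *Dkk1* was higher in 2 of 4 pairs, and its difference came mostly from pair 1, at 1.01. For *Sfrp1* the brighter probe gave -0.21 and the other 0.07, so the sign of its difference depended on the probe.

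*Axin2*, *Lef1* and *Tcf7* showed no common direction once each probe was looked at. *Axin2*, which β-catenin induces and which then helps to break β-catenin down, measured 4.90, 4.72, 4.66 and 4.54 without and 5.23, 5.01, 4.44 and 4.30 with irradiation. It was higher in pairs 1 and 2 and lower in pairs 3 and 4, by 0.04 in the mean (SE 0.15, 95% interval -0.34 to 0.41). The brighter *Lef1* probe measured 8.22, 6.67, 7.15 and 7.43 without and 8.02, 7.29, 7.30 and 7.42 with irradiation, a difference of 0.14 (SE 0.16). The *Lef1* probe printed above gave -0.39 (SE 0.27), lower in 3 of 4 pairs, and without replicate 1 it was at -0.74, which passed at the unadjusted level only. This *Lef1* probe was dim, with pair means of 3.64 to 4.70, and was not well above background on irradiated array 2. It was therefore tested only through the non-irradiated group, in which it was higher, so its values are given as a description. The brightest *Tcf7* probe measured 8.46, 7.66, 8.002 and 7.81 without and 8.18, 8.25, 7.88 and 7.63 with irradiation, a difference of 0.003 (SE 0.18). The *Tcf7* probe printed above gave -0.25 (SE 0.19) and the other one 0.06. Probes of 1 gene disagreed in sign for 6 of the 10 genes with several tested probes, which were *Wnt1*, *Wnt2*, *Sfrp1*, *Sfrp4*, *Lef1* and *Tcf7*.

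Another 64 genes of the pathway, from Wnt secretion and R-spondins to β-catenin partners, planar polarity and known targets, were listed as context. Of the 62 tested, 32 were higher and 30 lower, with a median of 0.0084, and none passed after adjustment. At an unadjusted p below 0.05 (limma), 1 was higher and 1 lower, against 1.42% and 1.12% of all probes. Values were higher in 4 of 4 pairs for 1 and lower in 4 of 4 for 2, against 3.57% and 4% of all probes. *Nkd2*, which dampens signaling by binding Dishevelled, measured 7.32, 6.78, 7.02 and 7.76 without and 7.89, 7.09, 7.41 and 8.05 with irradiation. It was higher in 4 of 4 pairs, by 0.39 (SE 0.11, 95% interval 0.11 to 0.67; adjusted p = 1.00, limma). *Vangl2*, a planar polarity protein, was lower by 0.73 in the mean and in 3 of 4 pairs (log2 difference -0.73, SE 0.30; adjusted p = 1.00, limma). It was past the unadjusted level like *Nkd2*, but was well above background on 4 non-irradiated and 2 irradiated arrays, so it was tested only through the group in which it was higher. *Ryk*, a Wnt receptor outside the Frizzled family, was lower in 4 of 4 pairs by a small step (-0.08, SE 0.10). Its groups did not overlap, which was found for 0.579% of all probes. *Ctnnbip1*, an inhibitor of β-catenin, was also lower in 4 of 4 (-0.05, SE 0.11). *Ctnnb1*, β-catenin itself, differed by 0.04 (SE 0.14).

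For several members, the level varied more between pairs than the difference with irradiation did. The range of the differences measures how they varied from pair to pair, not how large they were. For 16 of 32 genes, and 6 of 9 inhibitors, the 4 pair means spanned a wider range than the 4 differences between irradiated and non-irradiated cells, against 35.5% of all probes. The median SD of the pair means was 0.34 for the members, 0.56 for the inhibitors and 0.25 for all probes. A test of the differences between pairs within the same fit (limma F test, chosen after seeing the data) called 10 of 43 member probes at an adjusted p below 0.1, against 9.21% of all probes. The 4 pairs stood in the same order in both groups for 7 of 31 genes, against 11.3% of all probes. The called probes belonged to 9 genes, of which 5 were inhibitors (*Sfrp1*, *Frzb*, *Dkk3*, *Sfrp2* and *Wif1*), 3 ligands (*Wnt2*, *Wnt11* and *Wnt9a*) and 1 a receptor (*Fzd1*). Pairs were neighbors on the slide and carried different rat numbers, so rat, preparation and slide position cannot be told apart. In bulk RNA, fewer cells of a type and less RNA per cell cannot be told apart either.

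**Figure D4:**
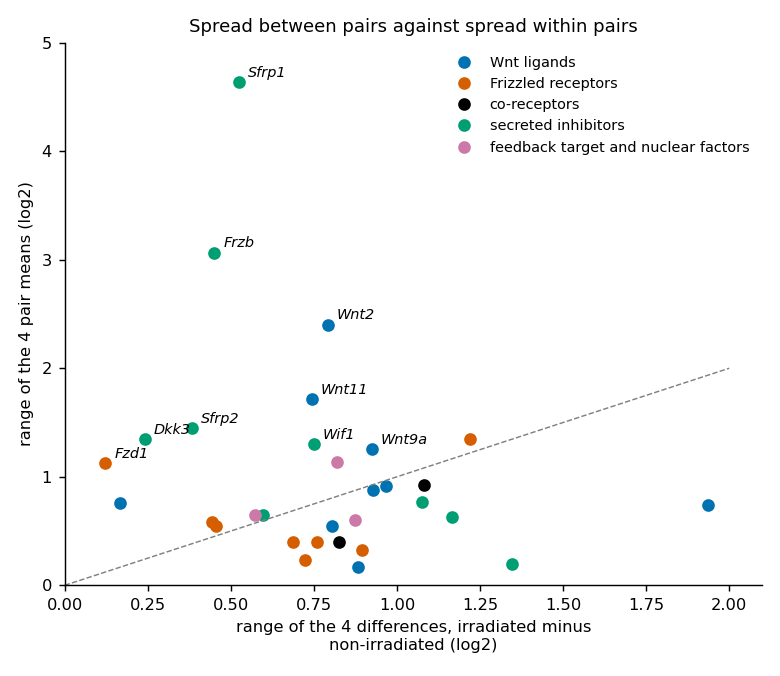
Range of the 4 pair means (y axis, log2) against the range of the 4 differences between irradiated and non-irradiated cells (x axis, log2), for the 31 tested members measured on all arrays. Points above the dashed line, where both ranges are equal, had pair means that spread more widely than their differences. Named genes had an adjusted p below 0.1 in the F test between pairs. *Sfrp1* and *Frzb* lie highest.

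*Sfrp1*, a secreted decoy that binds Wnt ligands, varied most. Its brighter probe, at chr16:73028112-73028171, measured 10.50, 9.45, 8.27 and 5.96 in non-irradiated replicates 1 to 4 and 10.58, 9.01, 7.88 and 5.85 in the irradiated ones. Pair 1 was highest and pair 4 lowest, with a ratio of 24.8-fold between their means, and the 4 pairs stood in the same order in both groups. The *Sfrp1* probe printed above measured 8.78, 7.31, 6.02 and 4.51 without and 8.65, 7.51, 5.86 and 4.89 with irradiation. It kept that order, with a ratio of 16.2-fold. The adjusted p was 0.0023 for the brighter probe and 0.0033 for the other (limma F test). The largest difference within a pair was 0.44 for the brighter probe. The summed signal of the 5 muscle markers, of which 4 were tested, stood in the same order of pairs, at 489, 308, 282 and 229 without and 375, 353, 261 and 224 with irradiation. This order did not hold for each marker. *Des* was lowest in replicate 1 among the non-irradiated arrays (5.12), and *Acta1* was highest in replicate 3 without (6.99) and in replicate 2 with irradiation (6.88). The osteoblast markers *Alpl*, *Bglap*, *Runx2*, *Ibsp* and *Dlx5*, whose values are given further on, were also lowest in pair 4. *Sp7*, *Col1a1*, *Col1a2* and *Spp1*, of the same list, were not. The part of muscle cells or osteoblasts in the level of *Sfrp1* was not tested.

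*Frzb*, another ligand-binding decoy that is abundant in developing cartilage, took 2 levels. It measured 7.64, 10.22, 10.52 and 7.82 without and 7.32, 10.35, 10.57 and 7.57 with irradiation. Pairs 2 and 3 lay between 10.2 and 10.6 and pairs 1 and 4 between 7.3 and 7.8, and the means of pairs 3 and 1 differed 8.36-fold (adjusted p = 0.0033, limma F test). The cartilage marker *Acan* measured 6.26, 8.15, 9.11 and 7.66 without and 6.41, 8.35, 9.15 and 7.97 with irradiation, so pair 3 was highest and pair 1 lowest for it too. *Sox9*, which directs cartilage formation, measured 11.02, 11.28, 11.33 and 10.77 without and 10.45, 11.87, 11.38 and 10.67 with irradiation, higher in pairs 2 and 3 than in pairs 1 and 4 in both groups, as *Frzb* was. *Col2a1* was at 9.84 and 10.23 in pair 1 and between 14.7 and 15.9 in the other pairs, pair 4 included. The summed signal of the 4 cartilage markers, of which 3 were tested and *Col10a1* was not, ranged from 3088 to 60950 in non-irradiated and from 2702 to 63631 in irradiated cells. The part of cartilage-like cells in the level of *Frzb* was not tested.

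**Figure D5:**
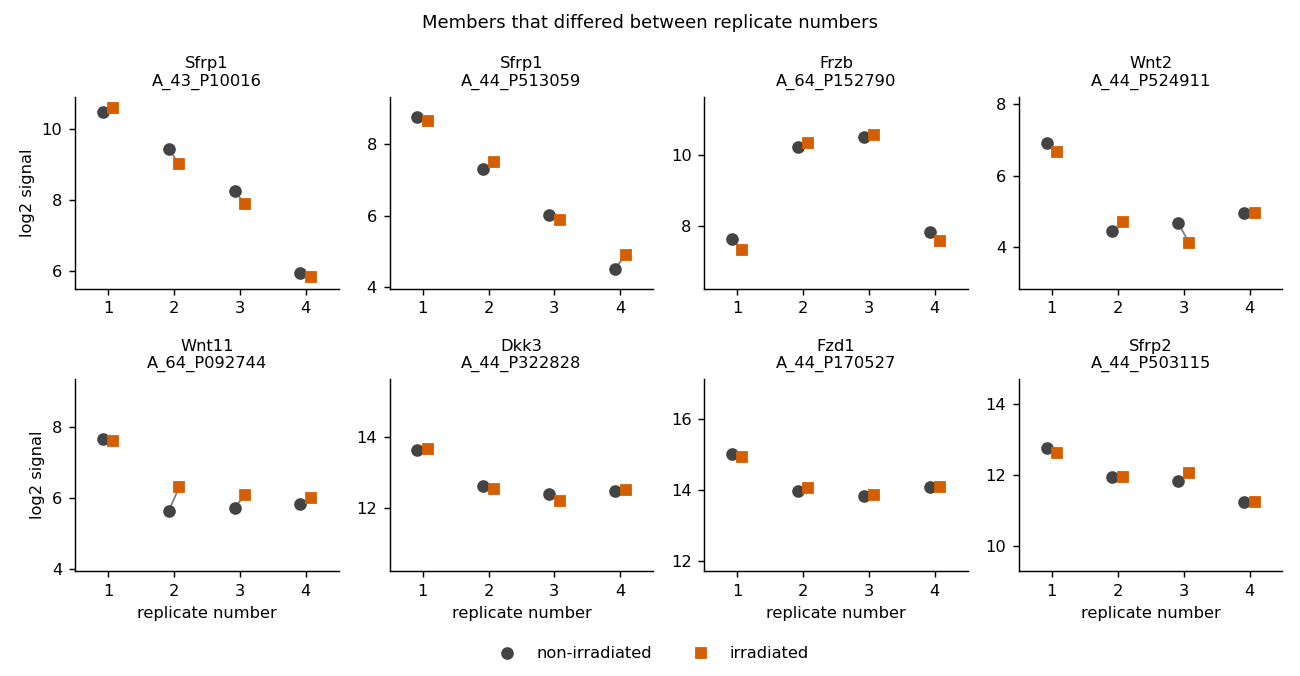
Log2 signal (y axis, with the same span in each panel) by replicate number (x axis) for 8 probes of members that differed between pairs. Circles are non-irradiated and squares irradiated cultures, and gray lines join a pair. In each panel, most pairs of symbols lie close together while the pairs lie apart.

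*Wnt2*, *Wnt11* and *Wnt9a*, and with them *Dkk3* and *Fzd1*, were highest in pair 1. *Wnt2* measured 6.92, 4.44, 4.66 and 4.94 without and 6.65, 4.69, 4.12 and 4.95 with irradiation, and the means of pairs 1 and 3 differed 5.28-fold (adjusted p = 0.017, limma F test). A second *Wnt2* probe spanned 1.66-fold, with pair 1 again highest, and did not pass (adjusted p = 0.17). *Wnt11* spanned 3.29-fold (adjusted p = 0.030) and *Wnt9a* 2.38-fold (adjusted p = 0.098). *Dkk3*, a Dkk relative that is not a clear antagonist, measured 13.63, 12.62, 12.41 and 12.48 without and 13.67, 12.54, 12.20 and 12.52 with irradiation, a span of 2.54-fold (adjusted p = 0.033). Another tested *Dkk3* probe spanned 2.39-fold, with the mean of pair 1 again highest, and did not pass (adjusted p = 0.13, limma F test). *Fzd1* spanned 2.18-fold (adjusted p = 0.043). The endothelial marker *Tek* was highest in pair 1 as well, at 8.20 and 7.85 against 5.68 to 6.55 on the other arrays. The other 4 endothelial markers were not, or not in both groups. The summed signal of all 5, which were all tested, was highest in pair 2, at 13034 without and 18146 with irradiation. It was 9826 and 8076 in pair 1, and lowest in pair 4, at 7045 and 7499. The muscle marker *Myog*, at 7.26 and 7.01 against 5.41 to 6.30, and *Itgam*, of the macrophage and leukocyte list, at 8.72 and 8.47 against 7.15 to 8.25, were highest in pair 1 as well. The summed muscle signal was 489 and 375 there and at most 308 and 353 in the other pairs. The other tested markers of the muscle and macrophage lists were not highest in pair 1 in both groups. In non-irradiated replicate 1, *Cd14* (9.29) and *Des* (5.12) were lowest among the non-irradiated arrays, and so was the summed macrophage and leukocyte signal (1245). With irradiation that sum was highest in replicate 4 (1687). The part of endothelial, muscle or myeloid cells was not tested.

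*Sfrp2* and *Wif1*, both ligand-binding inhibitors, were lowest in pair 4. *Sfrp2* measured 12.75, 11.92, 11.81 and 11.23 without and 12.61, 11.94, 12.05 and 11.23 with irradiation, a span of 2.73-fold (adjusted p = 0.038, limma F test). *Wif1* measured 7.70, 8.32, 7.52 and 6.64 without and 7.83, 7.79, 7.50 and 6.87 with irradiation, a span of 2.46-fold (adjusted p = 0.080). The osteoblast markers *Alpl* and *Bglap* were also lowest in pair 4, at 8.39 and 8.63 for *Alpl* against 10.1 to 10.9 on the other arrays, and at 7.05 and 6.65 for *Bglap* against 7.89 to 8.81. *Runx2* (10.39 and 10.40), *Ibsp* (4.86 and 4.47) and *Dlx5* (10.39 and 10.18) were lowest in pair 4 in both groups too. The remaining markers of that list did not follow them. *Col1a2* was highest in pair 4 in both groups (17.65 and 17.59). *Col1a1* and *Spp1* were highest in non-irradiated replicate 4 among the non-irradiated arrays (18.29 and 14.70). *Sp7* was lowest in replicate 3 without (4.74) and in replicate 2 with irradiation (4.71). *Col1a1* and *Col1a2* were the brightest of the list, so a summed signal mostly follows them. The summed signal of the 9 osteoblast markers, which all were tested, was highest in non-irradiated replicate 4 and ranged from 496979 to 555462 without and from 437664 to 526569 with irradiation, and their part in these results was not tested.

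These differences between pairs depended on which pairs were present, for the members as for all probes. Without replicate 1, 3 of 43 member probes passed, which were both of *Sfrp1* and that of *Frzb*, against 0.563% of all probes. Without replicate 4 these and *Wnt2* passed, against 1.27%, and without replicate 3 they were joined by *Wnt2*, *Wnt11* and *Sfrp2*, against 1.76%. Without replicate 2, 23 of 44 passed, against 36.7% of all probes. The members also placed irradiated replicate 2 beside non-irradiated replicate 2. Of the 10 member probes for which non-irradiated replicates 1 and 2 differed by over 1 log2 unit, 9 had irradiated replicate 2 nearer to non-irradiated replicate 2, as for *Frzb* and *Wnt2*, against 45.8% of 3265 such probes over the array.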

How the data were processed

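RNA of 4 non-irradiated and 4 irradiated cultures had been hybridized to single-color (Cy3) arrays, 1 per culture, with 200 ng total RNA each. Spot intensities were deposited as output of Agilent Feature Extraction 11.0.1.1, which per the file headers subtracts background and evens out spatial trends. The authors also deposited log2 values that they had quantile normalized, for 24029 rows, used here as an alternative. Gene names and rn4 positions are those of the array design. RefSeq symbols were found for 56 of 67 member probes, and 0 differed. Exon or UTR annotation was not used here.

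Quantile normalization was run on log2 processed signals of 58717 rat spots. Spots marked as outlying, 446 to 690 per array, were left out, and 0 were saturated. Testing was limited to the 26404 probes that were well above background, in over 50% of their spots, on all arrays of either group or both, and 26399 could be fitted. Irradiation was tested within pairs by limma (version 3.58.1, R version 4.3.3), replicate number being the block. All tests were two-sided, at an adjusted p of 0.1 and an unadjusted p of 0.05. The pairing comes from the rat number that both scanner files of a replicate number carry. Its check, the correlations within numbers, is given with the results. The fit was tested on simulated data. The number of arrays limits the precision. The p-values for irradiation are set against how the differences within pairs varied, a spread that limma moderates with that of all probes. The F test between pairs is set against the same spread. Differences between pairs were tested with an F test on the block terms, over 26250 probes with values on all arrays.

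The members and lists were chosen with earlier results of these data known. Values by array are given for members with an unadjusted p below 0.05, the same sign in 4 of 4 pairs, the 5 widest ranges over the 8 arrays, detection on all arrays of only 1 group, or a fixed place (*Lrp5*, *Lrp6*, *Axin2*, *Lef1*, *Tcf7*), by the brightest tested probe. *Fzd1*, *Dkk3*, *Sfrp2* and *Wnt6* were added after their values were seen. Marker lists covered osteoblasts, osteocytes, macrophages and leukocytes, muscle, endothelium, cartilage and adipocytes. Of these lists, 3 of 4 osteocyte, 3 of 6 macrophage, 4 of 5 muscle and 0 of 3 adipocyte markers were tested.

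Other settings run were array scaling by the 75th percentile, normexp (offset 50), the mean signal without correction, the deposited log2 values, no filter or all 8 arrays above background, outlying spots kept, no block, a random block, trend and robust estimation, probes of a gene averaged, and each replicate left out.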

Additional observations from a re-analysis of the deposited data

Results flagged for a closer look

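Non-irradiated replicate 1 stood apart from the other 3 non-irradiated arrays for 4 members. *Wnt11* was at 7.66 there, against 5.63 to 5.83, and *Wnt9a* at 9.90 against 8.47 to 8.69. *Fzd10* was at 8.65 against 8.28 to 8.34, and *Sfrp5* at 4.43 against 5.19 to 5.35. In each case the gap to the nearest array, divided by the whole range, was above the critical value of Dixon's test at the 95% level. Irradiated replicate 1 had the highest irradiated level for *Wnt11* and *Wnt9a*, at 7.59 and 9.62, but not for *Fzd10*, at 8.43. Among the 63 groups of 4 arrays looked at, about 5% would be listed by chance, and all 4 listed values came from the same array.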

How the results depend on the processing

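The count of members past an adjusted p of 0.1 was 0 in every setting run, and each class median moved by less than the spread between pairs, with the median of all members between -0.021 and 0.096. The count of member probes at an unadjusted p below 0.05 was 1, and 0 with normexp, the mean signal, the deposited values or all 8 arrays above background, where *Wnt10a* no longer passed or was not tested. It was 4 without a filter, where both *Wnt8a* probes were higher and *Wnt6* lower (3.64% of all probes), and between 0 and 4 when a replicate was left out: *Wnt11*, *Wnt10a*, *Wnt7a* and *Lef1* passed without replicate 1 (4.08% of all probes), *Lrp5*, *Fzd8*, *Wnt10a* and *Tcf7* without replicate 2 (5.34%), and 0 without replicate 4 (1.52%). With no replicate block the count was 1, *Wnt10a*, and the block changed no other call. Small differences turned sign: *Axin2* was at -0.0035 with normexp and between -0.059 and 0.13 when a replicate was left out (-0.048 without replicate 2), *Tcf7* at -0.0054, -0.0042 and -0.061 with normexp, the mean signal or averaged probes and between -0.19 (without replicate 2) and 0.099 when a replicate was left out, *Lef1* at -0.13 with averaged probes and between -0.024 (without replicate 2) and 0.25 when a replicate was left out, *Lrp6* between -0.016 (without replicate 2) and 0.26, *Wif1* between -0.14 and 0.11 (without replicate 2), and *Wnt9b* between -0.25 and 0.072 (without replicate 3; 0.036 without replicate 4). The cause was not tested. The number of probes that differed between pairs was 10, between 8 and 15 in other settings and between 3 and 23 when a replicate was left out. *Sfrp1* and *Frzb* passed in all 13 alternatives run. Probes near background, such as those of *Wnt10a* and *Wnt6* and the printed probe of *Lef1*, are limited by signal.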
